A study of Mus musculus with 17 samples.

Results

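The zinc finger genes numbered Zfp700 to Zfp999, together with Rsl1, were followed in RNA of 17 mouse livers. Of 127 rows of the deposited table that carried such a name, 112 had 3 or more libraries at a normalized value of 10 or higher, and these 112 genes, out of 16157 that passed the same filter, are described here. The groups were wild-type mice of wild-type ancestry (WT, n = 4), Khdc3-null mice of Khdc3-null ancestry (KO, n = 3), and females bred from heterozygous parents whose own parents were WT and KO, namely genetically wild-type WT_star (n = 4) and genetically null KO_star (n = 6). All mice were 8 weeks old, the labels give liver as tissue and hepatocyte as cell type, and no source used here gives the strain background, the litters or the form of the Khdc3 allele. A library is called by its group followed by its title number, and the sex of WT and KO is not stated in the sources used here. Khdc3, an oocyte gene, was at 0 to 1.14 in WT, 1.97 to 2.66 in KO, 0.896 to 1.18 in WT_star and 0 to 4.05 in KO_star, which is 0 to a few reads per library, so its level cannot check the genotype labels.

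Most numbered zinc finger proteins of this kind read DNA through a row of C2H2 zinc fingers and carry a KRAB domain, which binds the corepressor Trim28. Trim28 in turn brings the histone methyltransferase Setdb1, and the pair silences transposable elements and some genes. In mouse liver, Rsl1 is known from natural loss-of-function alleles as a repressor that limits male-specific genes such as the complement relative C4a (Slp) and the major urinary protein genes. By coding sequence in GENCODE M21, 77 of 110 members with an annotated coding sequence had a stretch resembling the core of a KRAB domain in their first 200 codons and 33 did not, so the KRAB name holds for most of the set. The absence of such a match does not show that a domain is absent. The number of stretches with C2H2 finger spacing ran from 0 to 30 per gene, with a median of 11, and 5 members had none. Among the 12 members called in at least 1 comparison, 9 had the KRAB-like stretch, against 68 of 98 among the others.

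The members lay mostly in gene clusters. With neighbours at most 1 Mb apart counted together, 84 of 112 members fell into 18 clusters, and chromosomes 7 (24 members), 17 (22), 8 (14) and 13 (14) held the most. The 4 promoters shown here belong to the pairs of cluster members called in the same direction, Rsl1 with Zfp874a on chromosome 13 and Zfp944 with Zfp983 on chromosome 17. Each is the 250 bases before the RefSeq start site on GRCm38.p6, written 5′ to 3′ on the gene's strand. Capitals mark matches on either strand to any of 6 motifs. These are the GC box, spelled GGGCGG, and the CCAAT box, spelled by its name. The TATA box was searched for as TATAAA and the cyclic AMP response element as TGACGTCA. The E-box was searched for as CACGTG and the ETS core as CCGGAAG.
Rsl1 (chr13:67172932-67173181, plus strand): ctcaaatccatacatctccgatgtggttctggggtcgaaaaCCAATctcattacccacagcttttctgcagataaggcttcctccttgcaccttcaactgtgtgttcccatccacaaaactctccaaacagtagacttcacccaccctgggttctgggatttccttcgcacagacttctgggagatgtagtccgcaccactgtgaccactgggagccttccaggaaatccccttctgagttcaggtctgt
Zfp874a (chr13:67451625-67451874, minus strand): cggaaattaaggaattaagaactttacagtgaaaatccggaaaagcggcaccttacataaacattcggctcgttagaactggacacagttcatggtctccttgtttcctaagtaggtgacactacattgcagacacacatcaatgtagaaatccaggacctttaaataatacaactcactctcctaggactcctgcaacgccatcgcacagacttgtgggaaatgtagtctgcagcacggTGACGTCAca
Zfp944 (chr17:22361401-22361650, minus strand): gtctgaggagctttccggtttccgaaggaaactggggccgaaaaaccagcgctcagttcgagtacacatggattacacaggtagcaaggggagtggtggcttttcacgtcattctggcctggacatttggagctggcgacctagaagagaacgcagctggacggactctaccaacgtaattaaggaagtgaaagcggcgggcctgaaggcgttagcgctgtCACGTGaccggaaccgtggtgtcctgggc
Zfp983 (chr17:21650361-21650610, plus strand): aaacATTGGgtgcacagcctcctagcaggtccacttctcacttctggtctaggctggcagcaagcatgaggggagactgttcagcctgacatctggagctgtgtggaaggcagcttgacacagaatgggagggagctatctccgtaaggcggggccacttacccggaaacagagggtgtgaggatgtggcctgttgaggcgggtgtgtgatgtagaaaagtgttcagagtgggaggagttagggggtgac
The members of a pair held different motifs among these 6: Rsl1 and Zfp983 held CCAAT or its complement, Zfp874a the cyclic AMP response element and Zfp944 the E-box. CCAAT occurred in 62.6% of the 115 promoters of members, against 33.8% of 32851 promoters of all genes, while the cyclic AMP response element occurred in 3.48% against 1.55% and the E-box in 10.4% against 6.02%. The TATA box was in 5.22% against 12.4%, the GC box in 36.5% against 32.7% and the ETS core in 12.2% against 6.91%. A match describes the letters and not a bound site.

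Depth ran from 17.6 to 26.7 M reads in genes per library, where M stands for mega, and the 112 members took 963.4 to 1106.5 reads per M in a library. The members' share had a median of 978.1 per M in WT (963.4 to 1043.8), 1105.1 in KO (1068.2 to 1106.5), 1022.5 in WT_star (1000.8 to 1098.6) and 997.5 in KO_star (974.0 to 1068.8). WT_star 33 and KO_star 16 stood furthest from their groups, with 1228 and 998 genes over 2-fold from the rest of the group, against 438 to 865 in the other libraries. WT_star 33 had the highest WT_star sums of Kupffer cell (7043.04), B and plasma cell (263.47) and T and NK cell markers (99.98). KO_star 16 stood apart in cycling cell markers, with a summed value of 2579.53 over 5 genes against 458.52 to 856.47 in the other KO_star libraries. Hepatocyte markers dominated everywhere, with a summed value over 7 genes of 1586900 to 2624190, and the summed markers of sinusoidal endothelium (7630.32 to 10609.3), Kupffer cells (3289.52 to 7043.04) and stellate cells (7824.28 to 15356.7) were above 0 in every library. The labelled cell type is thus the main one by these markers, with RNA of other liver cells beside it. In such bulk RNA, fewer cells of a type and less RNA per cell cannot be told apart.

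As levels per kb of exon, which allow genes to be compared, Zfp706 was the highest member at a mean of 304.8 over the 17 libraries, followed by Zfp707 (252.5), Zfp768 (208.4) and Zfp809 (159.8). The median member was at 29.4 per kb and Zfp831 was lowest at 1.04. All 17 libraries reached the value of 10 for 96 members. Just inside the filter, the third highest library was at 11.6 for Zfp808, 12.2 for Zfp969 and 13.01 for Zfp831, and just outside it at 9.47 for Zfp811, 9.12 for Zfp972 and 5.68 for Zfp853. Zfp960, Zfp783, Zfp808 and Zfp969 reached 10 in 3 of the 4 groups only, so a difference for them is in part set by the filter. Reads of near-identical copies may be divided between genes by the counting. Of the 50-base words in Zfp960 transcripts, 82.7% also occur in other genes, and Zfp97 is the single gene with the most such matches. The share was 25.2% for Rsl1 and at most 11.9% for the other called members.

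In the overview of all comparisons, KO against WT held the most called members. By limma's test with Benjamini-Hochberg adjustment over all genes, 9 of 112 members differed (8.04%) where 2.89% of all genes tested did, and 7 of the 9 were higher in KO. Zfp960 is among these 7. No WT library reached the value of 10 for it, so its call is in part set by the filter. The higher calls were 1.32% of all genes tested and the lower calls 1.57%. Among 232 other numbered zinc finger genes, 3 differed (1.29%). The median log2 fold change of the members was 0.12, with 77 above 0 and 35 below, beside 0.008 over all genes and 0.05 over the other numbered zinc finger genes. These are shares and medians, and the difference between the sets was not tested.

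Cell type markers also differed between KO and WT. The summed hepatocyte markers were at 2388500 to 2502450 in WT and 1586900 to 1812750 in KO, with 2 of 7 called lower. They were at 1836140 to 2096080 in WT_star and 1993510 to 2624190 in KO_star. Alb made up most of this sum, with a mean of 2068630 in WT and 1372570 in KO. Cps1, also called, and Apoa1 and Tat had lower means in KO as well. Ttr (91242 in WT, 89395 in KO) and Hnf4a (20031 and 19493) differed little, and Serpina1c was higher in KO (8393 and 9595). The 6 stellate cell and fibroblast markers summed to 11292.2 to 14078.2 in WT and 8786 to 9253.8 in KO, with 1 called lower, and the 5 cycling cell markers to 366.33 to 1203.81 in WT and 279.46 to 376.45 in KO. The part of these markers in the members' differences was not tested.

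**Figure D1:**
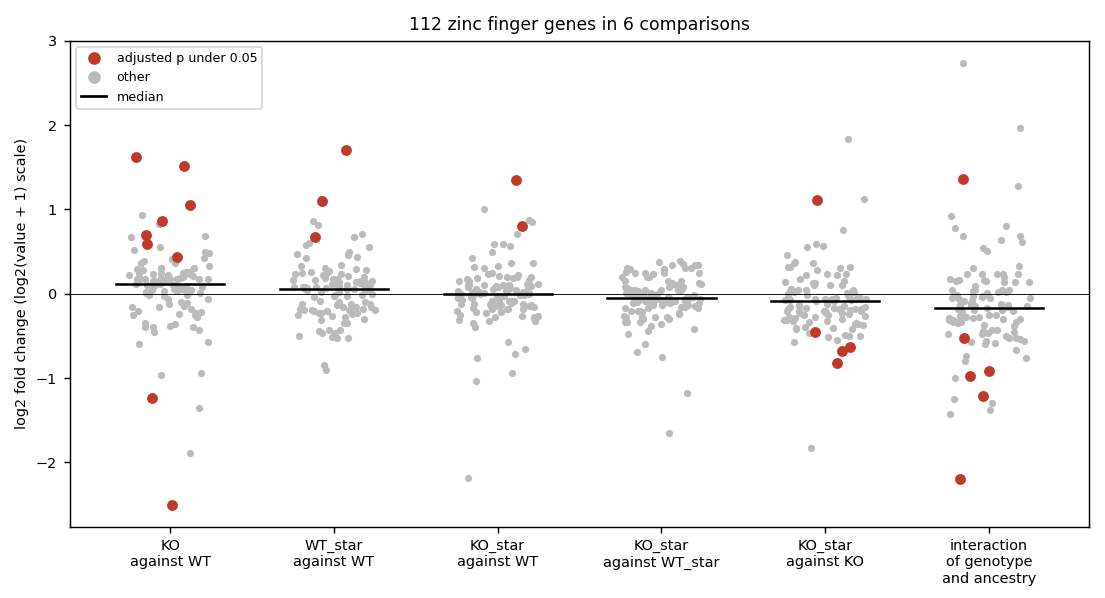
Log2 fold change (log2(value + 1) scale, vertical axis) of each of the 112 members in 6 comparisons; red points have an adjusted p under 0.05, grey points do not, and the black line is the median. KO against WT has 9 red points and KO_star against WT_star has 0.

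In the other comparisons fewer members were called. WT_star against WT had 3 (all higher), where 0.904% of all genes were called, 0.532% higher and 0.371% lower. Zfp960, whose call is in part set by the filter, is among these 3. KO_star against WT had 2 (both higher), where 0.706% of all genes were called, 0.464% higher and 0.241% lower. KO_star against KO had 5, 1 higher and 4 lower, where 1.46% of all genes were called, 0.99% higher and 0.47% lower. KO_star against WT_star had 0, where 0% of all genes were called. There 13 of 112 members had an unadjusted p under 0.05 by limma, beside 1185 of all 16157 genes, and the shares were not compared by a test. By edgeR and DESeq2, 0 members were called as well, with 11 and 12 members under an unadjusted 0.05. For these tools the matching counts over all genes are not given here. A test for any difference among the 4 groups called 9 members, again with Zfp960, where 2.74% of all genes were called. In all, 12 members passed in at least 1 comparison and 100 in none. The matching share of all genes is not given here, so this count cannot be read as high or low. KO against WT, WT_star against WT and KO_star against WT share the 4 WT libraries, so a low or high WT value enters all of them, and KO_star against KO and the interaction share libraries with the rest in the same way.

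**Figure D2:**
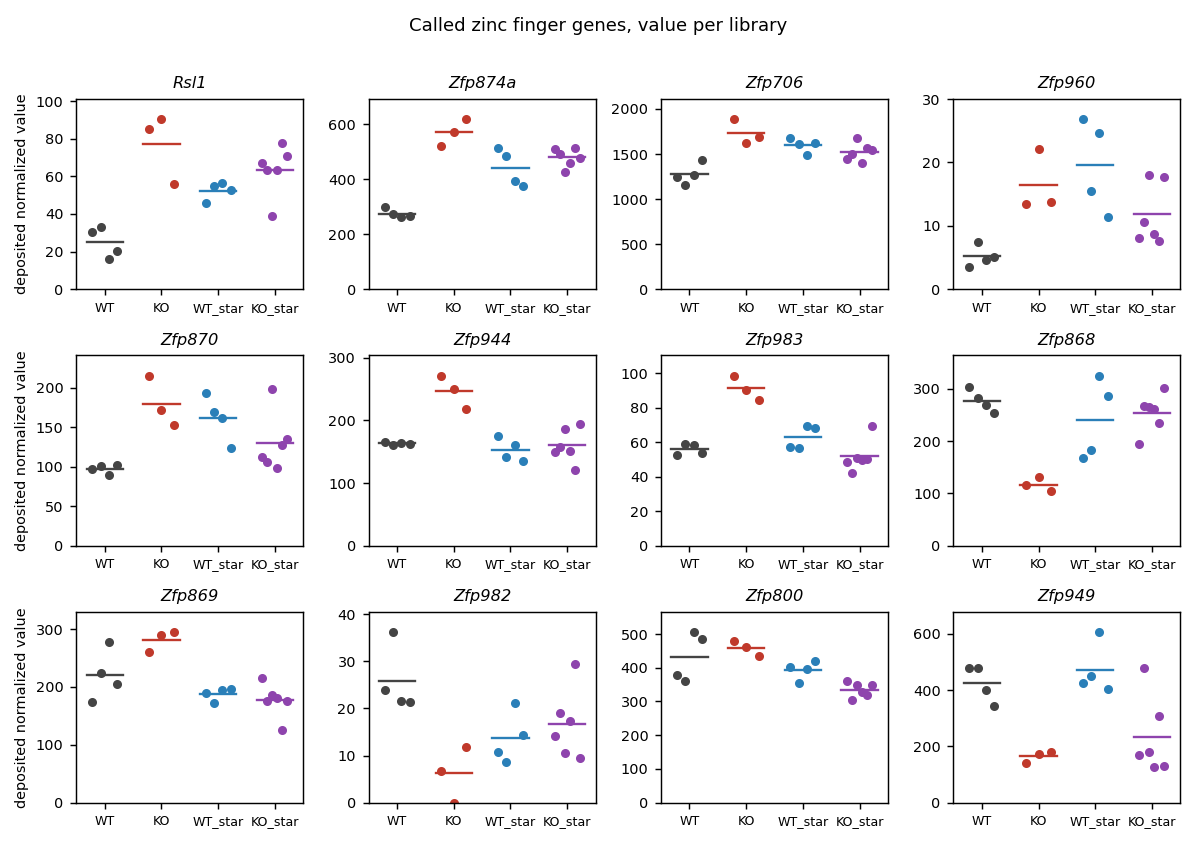
Deposited normalized value (vertical axis, linear from 0) of the 12 called members in every library; points are libraries, horizontal bars are group means. Rsl1 and Zfp874a are lowest in WT, Zfp868 is lowest in KO, and Zfp944 and Zfp983 are highest in KO.

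Rsl1, the repressor of male-specific liver genes (chromosome 13 at 67173182 to 67184044), was lower in WT than in each group with Khdc3-null ancestry. Its values were 30.2, 32.9, 15.98 and 20.3 in the WT libraries and 85.2, 90.6 and 56.1 in KO. They were 45.7, 55.1, 56.5 and 52.6 in WT_star, and ran from 39.2 over a median of 65.1 to 77.7 in KO_star. No library of the other groups came down to the WT range. The log2 fold change was 1.62 in KO (SE 0.26, adjusted p = 0.0023 by limma, 3.08-fold), 1.10 in WT_star (SE 0.24, adjusted p = 0.043) and 1.35 in KO_star (SE 0.22, adjusted p = 0.0051), each against WT. In the interaction it was at -1.38 (SE 0.34, adjusted p = 0.054). The WT_star call was lost by edgeR, with only the libraries compared and without any 1 of WT 26, WT 27, WT 28 and the 4 WT_star libraries, with an adjusted p of up to 0.11.

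B cell and plasma cell markers followed a similar order of groups. The summed value of the 6 markers, all of them tested and none at 0, was 76.5 to 144.6 in WT, 164.3 to 201.5 in KO, 143.3 to 263.5 in WT_star and 133.6 to 212.8 in KO_star. By limma, 1 of the 6 was called higher in KO and 1 in WT_star, each against WT. The pan-B cell genes Cd79a and Ms4a1 were at 2.03 to 18.8 in every library. Their part in the level of Rsl1 was not tested.

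Zfp874a lies in the same cluster as Rsl1 (chromosome 13 at 67424549 to 67451624) and had the smallest adjusted p of the set. It was at 297.0, 272.7, 262.5 and 266.5 in WT and at 522.4, 572.7 and 619.0 in KO. In WT_star it was at 513.3, 485.1, 392.9 and 375.4, and KO_star ran from 425.6 over a median of 484.9 to 514.4. WT overlapped with none of the other groups. The log2 fold change against WT was 1.05 in KO (SE 0.11, adjusted p = 3.3e-05, 2.07-fold), 0.67 in WT_star (SE 0.10, adjusted p = 0.0031) and 0.80 in KO_star (SE 0.09, adjusted p = 0.00025). These 3 calls held in all alternatives run, left-out libraries included.

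The other members of the chromosome 13 cluster (10 members in 0.65 Mb) did not pass. Zfp874b, the paralogue next to Zfp874a, had log2 fold changes of -0.18, -0.17 and -0.32 against WT in KO, WT_star and KO_star, with an adjusted p of at least 0.15. Zfp712 at the cluster's edge had 0.94, 0.67 and 0.88, with an adjusted p of at least 0.12, and Zfp759 had -0.40, -0.35 and -0.71, with an adjusted p of at least 0.066. For Zfp759, the difference between KO_star and WT passed by DESeq2 (adjusted p = 0.014) and without KO_star 14 (adjusted p = 0.0068). Of 12 other tested genes between the cluster's first and last member, 3 were called in KO against WT, namely Gm28557 (higher), F630042J09Rik (lower) and the zinc finger gene Zfp459 (lower), and 0 in WT_star or KO_star against WT.

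**Figure D3:**
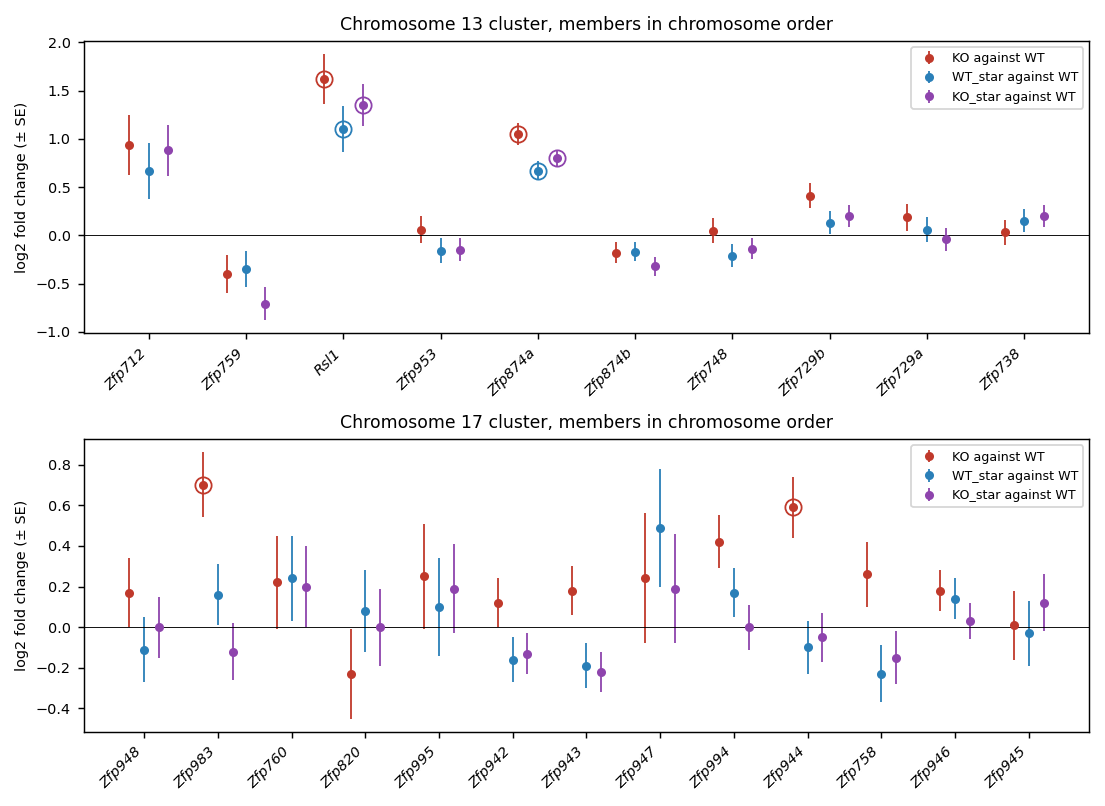
Log2 fold change against WT (vertical axis, bars are SE) of each member of the chromosome 13 and the chromosome 17 cluster in chromosome order; colours give the group, and rings mark an adjusted p under 0.05. Rings are on Rsl1 and Zfp874a in all 3 groups, and on Zfp944 and Zfp983 in KO only, with the KO_star to KO difference given in the text.

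C4a, a gene that Rsl1 is reported to repress, was at 552.7 ± 86.2 (SD, n = 4) in WT and at 158.0 ± 39.1 (SD, n = 3) in KO. The WT_star mean was 335.0 ± 200.6 (SD, n = 4) and the KO_star mean 352.9 ± 202.1 (SD, n = 6). Its log2 fold change in KO against WT was -1.82 (SE 0.56) and did not pass by limma (adjusted p = 0.11). DESeq2 called it in that comparison and edgeR did not. A list of 26 genes was set up around reported Rsl1 targets. It holds C4a, C4b, Cyp2d9, Hsd3b5 and 22 major urinary protein genes, the last taken by name alone. Not every gene of the list need be a target of Rsl1, and its counts and medians rest mostly on the major urinary protein genes. Of the 26, 0 passed by limma or edgeR in any comparison. By limma, at most 1 per comparison had an unadjusted p under 0.05, where 1185 to 3116 of 16157 genes did. By DESeq2, C4a was called lower in KO against WT, and Mup21 was called in KO_star against WT and over all 4 groups. The limma log2 fold change of Mup21 against WT was above 0, opposite in sign to that of C4a in KO, at 0.99 in KO (SE 0.72, adjusted p = 0.55), 0.98 in WT_star (SE 0.67, adjusted p = 0.53) and 1.91 in KO_star (SE 0.61, adjusted p = 0.20), none of which passed. The median log2 fold change of the list was -0.12 in KO, -0.03 in WT_star and -0.32 in KO_star against WT, beside 0.008, 0.002 and 0 over all genes. The major urinary protein genes are near-identical copies, so their separate values are uncertain. In KO_star 16, the abundant Mup3 was at 5474, against 31434 to 61377 in the other KO_star libraries. Each of the 22 major urinary protein genes had its lowest KO_star value in that library. Mup16, for example, was at 18.23 there, against 1086.65 to 9631.6 in the other KO_star libraries. These values enter the KO_star median of the list, which was not recomputed without KO_star 16.

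On chromosome 17, Zfp944 (22337989 to 22361400) and Zfp983 (21650624 to 21664966) were high in KO alone. Zfp944 was at 166.3, 160.2, 164.4 and 162.1 in WT, at 271.3, 250.4 and 218.5 in KO and at 175.6, 141.1, 161.1 and 135.1 in WT_star. KO_star ran from 120.3 over a median of 154.9 to 193.9, so every KO library stood above all 14 others. Zfp944 differed on the log2 scale by 0.59 in KO against WT (SE 0.15, adjusted p = 0.037) and -0.63 in KO_star against KO (SE 0.13, adjusted p = 0.028). The first call was lost with no filter and without any 1 of the 7 libraries compared (adjusted p up to 0.16), and the second with only the libraries compared and without KO 30, KO 31, KO 32 or KO_star 16 (up to 0.15).

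Zfp983 showed the same order. It was at 52.5, 59.1, 58.2 and 53.7 in WT, at 98.6, 90.6 and 84.6 in KO and at 57.3, 57.0, 69.4 and 68.1 in WT_star, and KO_star ran from 42.2 over a median of 50.1 to 69.8. All KO libraries again stood above all others. Zfp983 differed on the log2 scale by 0.70 in KO against WT (SE 0.16, adjusted p = 0.028, 1.62-fold) and -0.82 in KO_star against KO (SE 0.15, adjusted p = 0.013). The call against WT was lost with no filter and without WT 25, WT 27, WT 28 or any KO library (adjusted p up to 0.12), and that of KO_star against KO without KO 30 or KO 31 (up to 0.082). Zfp983 overlaps CAAA01141682.1 on the same strand and Zfp944 overlaps no annotated gene.

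Of the 13 members in this 1.3 Mb cluster, 12 had a log2 fold change above 0 in KO against WT, with a median of 0.22. Among all 112 members it was 77, with a median of 0.12, and in the chromosome 13 cluster 8 of 10. In KO_star against KO, 11 members of this cluster were below 0 and 2 above, with a median of -0.17. Among all 112 members 75 were below 0 there, with a median of -0.08. The direction was thus not particular to this cluster. These comparisons share the KO libraries. Zfp994 (0.42 in KO against WT, -0.42 in KO_star against KO) and Zfp943 (0.18 and -0.40) came next to the called pair in KO_star against KO, with an adjusted p of 0.094 and 0.074 there. Of 4 other tested genes in the cluster, Gm7809, which overlaps Zfp943 on the opposite strand, was lower in KO than in WT and higher in KO_star than in KO. The strand setting of the counting is not given in the sources used here, so reads of these genes cannot be told apart.

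A second chromosome 17 cluster, 7 members in 0.54 Mb, held Zfp870 (32879219 to 32891642). It was at 97.8, 101.0, 89.0 and 102.3 in WT, at 215.2, 172.2 and 152.5 in KO and at 193.5, 169.1, 162.3 and 123.8 in WT_star. KO_star ran from 99.1 over a median of 120.2 to 198.0 and overlapped with WT. The log2 fold change was 0.86 in KO against WT (SE 0.20, adjusted p = 0.029, 1.82-fold) and 0.71 in WT_star against WT (SE 0.19, adjusted p = 0.078), which did not pass. The KO call was lost without WT 25, WT 27, WT 28 or any KO library (adjusted p up to 0.14). Zfp870 overlaps CT033772.1 on the opposite strand.

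Zfp960 stands alone on the same chromosome (17064113 to 17089628) and was low, with few reads behind each value. It was at 3.56, 7.39, 4.57 and 5.07 in WT, at 13.45, 22.2 and 13.8 in KO and at 26.9, 15.5, 24.7 and 11.3 in WT_star, and KO_star ran from 7.58 over a median of 9.64 to 18.0. The floor of 3 reads corresponds to 2.38 to 3.55 in these values. WT lay below all KO, WT_star and KO_star libraries in these values, from KO_star only by the scaling. In whole reads WT 26 held 9, and KO_star 12 and KO_star 17 held 8 each. The log2 fold change was 1.51 in KO (SE 0.38, adjusted p = 0.040) and 1.70 in WT_star (SE 0.35, adjusted p = 0.029), each against WT. The KO call was lost with a pseudocount of 5, with no filter and without WT 25, WT 27, WT 28 or any KO library (adjusted p up to 0.19), and the WT_star call with only the libraries compared and without any WT library or WT_star 20, 21 or 33 (up to 0.13).

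Zfp868, on chromosome 8 at 69610857 to 69625548, went the other way and was lowest in KO. It was at 302.4, 281.7, 268.2 and 254.3 in WT and at 115.5, 130.5 and 104.3 in KO. In WT_star it was at 168.4, 183.6, 324.6 and 286.7, and KO_star ran from 193.6 over a median of 263.2 to 301.5. Every KO library stood below all 14 others. Zfp868 had log2 fold changes of -1.24 in KO against WT (SE 0.19, adjusted p = 0.0019) and 1.11 in KO_star against KO (SE 0.18, adjusted p = 0.0059). Both calls held in all alternatives run. In WT_star against WT the value was -0.25 (SE 0.18, adjusted p = 0.55).

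The cluster around Zfp868 has 6 members in 0.58 Mb. Zfp869 (69706332 to 69710724) was at 174.3, 223.4, 278.5 and 204.7 in WT, at 261.2, 289.4 and 294.2 in KO and at 189.0, 173.0, 194.1 and 196.0 in WT_star, and KO_star ran from 126.0 over a median of 178.8 to 214.9. KO and KO_star did not overlap (log2 fold change -0.68, SE 0.15, adjusted p = 0.029), a call that was lost without any 1 of the KO libraries (up to 0.14). Zfp868 and Zfp869 differed in opposite directions between KO_star and KO. The remaining 4, Zfp930, Zfp964, Zfp963 and Zfp866, did not pass in any comparison, and none of the 3 other tested genes in the cluster did.

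Zfp706 encodes a short protein of 76 codons with 1 finger and no KRAB-like stretch, and is known as a regulator of self-renewal in mouse embryonic stem cells. It was at 1246, 1152, 1265 and 1437 in WT, at 1889, 1617 and 1686 in KO and at 1676, 1615, 1487 and 1624 in WT_star. KO_star ran from 1396 over a median of 1520 to 1675, overlapping with WT through 1 WT library. Its log2 difference was 0.44 in KO against WT (SE 0.09, adjusted p = 0.0094, 1.36-fold), and the call was lost without KO 30 (adjusted p = 0.067). In WT_star the log2 fold change was 0.33 (SE 0.08, adjusted p = 0.056), which did not pass. Zfp706 overlaps Gm26766 on the opposite strand.

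Zfp800 is a regulator of endocrine cell development in the pancreas and carries 7 fingers with no KRAB-like stretch. It was at 379.7, 359.8, 504.5 and 484.4 in WT, at 478.7, 462.6 and 434.0 in KO and at 403.1, 354.7, 397.6 and 419.8 in WT_star, and KO_star ran from 304.2 over a median of 337.5 to 360.8. KO_star lay below KO in every library (log2 fold change -0.45, SE 0.10, adjusted p = 0.038). That call was lost with no filter and without any KO library or KO_star 13, 16, 17 or 29 (up to 0.17). Zfp800 overlaps 6530409C15Rik on the opposite strand.

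Zfp982 lies in a cluster of 5 members on chromosome 4 (147492417 to 147513486). It was at 24.0, 36.1, 21.7 and 21.3 in WT and at 6.73, 0 and 11.8 in KO. In WT_star it was at 10.8, 8.70, 21.2 and 14.4, and KO_star ran from 9.46 over a median of 15.8 to 29.4. The KO libraries lay below all WT libraries, and the log2 fold change was -2.50 (SE 0.62, adjusted p = 0.039). The call was lost by edgeR, with a pseudocount of 0.5, with only the libraries of these 2 groups and without any WT library, KO 30 or KO 31 (up to 0.15). KO 31 held 0 reads of Zfp982 and KO 30 held 6, and the log2 fold change was -1.40 without KO 31, -1.60 with a pseudocount of 5 and -3.24 without KO 32. Its neighbour Zfp984 was at -1.89 on the same scale (SE 0.53, adjusted p = 0.066), and 54.5% of its 50-base words occur in other genes.

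Several members varied widely between mice of the same group. The SD within groups on the log2(value + 1) scale had a median of 0.229 over the members and was highest for Zfp969 (1.67), followed by Zfp872 (1.20), Zfp982 (0.892), Zfp984 (0.763), Zfp808 (0.725) and Zfp773 (0.703). Zfp969 and Zfp808 had means of only 3.85 and 6.97 over the 17 libraries, while Zfp872, Zfp984 and Zfp773 had 40.0, 24.1 and 32.9. Zfp970, at a mean of 280.6, had an SD of 0.698. Zfp872 was at 48.0 to 68.9 in WT, at 15.7, 99.4 and 53.1 in KO and at 25.1 to 56.7 in WT_star. In KO_star it was at 54.7, 7.39, 5.29, 1.58, 40.7 and 11.8, so 1 KO_star library lay in the WT range and 5 lay below it. Its log2 fold change in KO_star against WT was -2.18 (SE 0.72, adjusted p = 0.21). Zfp872 (chromosome 9, 22188090 to 22202123) and Khdc3 are 50.9 Mb apart, and 1810064F22Rik overlaps Zfp872 on the opposite strand. Zfp773 was at 103.3 in KO_star 17 and at 21.3 to 40.1 in the other KO_star libraries.

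**Figure D4:**
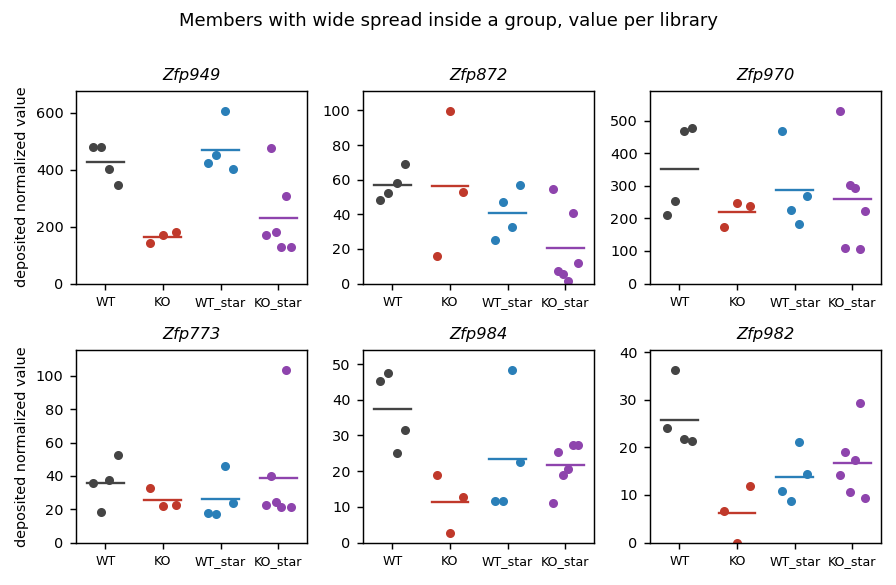
Deposited normalized value (vertical axis, linear from 0) in every library for 6 members with a wide spread inside groups; points are libraries, horizontal bars are group means. In KO_star, Zfp949 ranges from 127.6 to 477.3 and Zfp872 from 1.58 to 54.7.

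Zfp949 was called by the test over all 4 groups (adjusted p = 0.035) and by no single comparison. It was at 479.3, 478.9, 401.8 and 344.5 in WT, at 141.2, 171.4 and 181.1 in KO and at 424.6, 451.3, 604.6 and 402.2 in WT_star. The KO_star libraries were at 169.3, 477.3, 180.0, 127.6, 306.0 and 128.9. Both genetically wild-type groups thus stood at 344.5 or more, KO at 181.1 or less, and KO_star spanned both ranges. On the log2 scale Zfp949 was at -1.36 in KO against WT (SE 0.36, adjusted p = 0.051) and -1.18 in KO_star against WT_star (SE 0.30, adjusted p = 0.32). Without KO_star 13, the highest KO_star library, the second was -1.42 (adjusted p = 0.0082). Zfp949 is on chromosome 9 at 88548020 to 88571061, 15.4 Mb from Khdc3.

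The 2 other members with the smallest p in KO_star against WT_star, where none passed, were Zfp810 and Zfp825. On the log2 scale Zfp810 differed by -0.48 (SE 0.14, adjusted p = 0.39) and Zfp825 by -0.33 (SE 0.10, adjusted p = 0.43). KO_star and WT_star overlapped for both.

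Of members with a known role, Zfp809, which silences endogenous retroviruses through Trim28, was at 382.4 to 539.6 in WT, 482.0 to 620.9 in KO, 359.2 to 462.2 in WT_star and 363.0 to 661.7 in KO_star. KO and WT_star, which were not compared directly, did not overlap. The adjusted p was at least 0.52 in the 5 pairwise comparisons and the interaction, and 0.35 over all 4 groups. Zfp746 (Paris), a repressor of the mitochondrial regulator gene Ppargc1a, was at 446.3 to 532.3 in WT and 553.1 to 593.0 in KO (log2 fold change 0.26, SE 0.10, adjusted p = 0.17). Zfp932, which binds endogenous retroviral elements, was at 41.1 to 57.1 in WT and 63.9 to 71.7 in WT_star (log2 fold change 0.44, SE 0.16, adjusted p = 0.18). These 3 were picked for their roles with the values in view.

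The shared silencing machinery did not pass in any comparison by limma or edgeR. Of 25 listed genes, among them the corepressor Trim28, the methyltransferase Setdb1 and the heterochromatin proteins, 24 were tested and 0 were called. At an unadjusted p under 0.05 by limma there were 4 of the 24 in KO against WT, 2 in WT_star against WT and 7 in KO_star against KO. There was 1 each in KO_star against WT and KO_star against WT_star, and 4 in the interaction. Over all 16157 genes, the counts in the same order of comparisons were 2697, 2414, 2863, 1958, 1185 and 2575. The list's shares were not tested against those of all genes. Hells and Smarcad1, chromatin remodelling ATPases, were among the genes that DESeq2 called in KO_star against KO, and it called Hells in the interaction. Hells was at 31.39 to 39.95 in KO. It was at 276.58 in KO_star 16, the library high in cycling cell markers, and at 36 to 76.04 in the other KO_star libraries. Smarcad1 had a mean of 627.4 in KO and 500.5 in KO_star. The list's median log2 fold change lay between -0.09 and 0.03 over the comparisons. In KO against WT the log2 difference was 0.03 for Trim28 (SE 0.10, adjusted p = 0.92) and 0.06 for Setdb1 (SE 0.07, adjusted p = 0.77).

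Whether KO and WT differed by as much as KO_star and WT_star was tested as an interaction. KO and WT differ in both genotype and ancestry, which cannot be told apart in that pair. The interaction was called for 6 of 112 members, where 1.29% of all genes were called, 0.755% positive and 0.538% negative. Zfp960, whose call is in part set by the filter, is among these 6. Among the cell type markers, the hepatocyte gene Alb (0.86, SE 0.16, adjusted p = 0.012) and the immunoglobulin gene Igkc (-1.74, SE 0.41, adjusted p = 0.044) were called in the same test, and their part in the members' values was not tested. The log2 difference, KO_star minus WT_star less KO minus WT, was positive for Zfp868 (1.36, SE 0.25, adjusted p = 0.014) and negative for Zfp874a (-0.92, SE 0.14, adjusted p = 0.0034), Zfp983 (-0.98, SE 0.21, adjusted p = 0.031), Zfp706 (-0.52, SE 0.11, adjusted p = 0.030), Zfp870 (-1.21, SE 0.27, adjusted p = 0.032) and Zfp960 (-2.20, SE 0.49, adjusted p = 0.037). Zfp874a kept this call in all alternatives, and Zfp868 lost it without KO 32 (adjusted p = 0.051). Zfp706 lost it without WT 25, 26 or 27, KO 30 or 32, or WT_star 20, 21 or 34 (up to 0.1). Zfp983 lost it with no filter and without WT 25 or 28, any KO library, or WT_star 20 or 34 (up to 0.1). Zfp870 lost it without any WT or KO library or WT_star 20 or 21 (up to 0.11), and Zfp960 without WT 25, 27 or 28, any KO library, WT_star 20 or 21, or KO_star 12 or 16 (up to 0.12).

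Counts with 1 library left out are given here without the matching counts over all genes. Their shifts cannot be read as particular to the members. The count in KO against WT then ran from 3 to 7. It was 5 without WT 25, 4 without WT 27, 4 without WT 28, 3 without KO 30, 4 without KO 31 and 5 without KO 32, against 9 with all. WT_star against WT had 1 without WT 26, WT 27, WT 28, WT_star 20 or WT_star 21, against 3. KO_star against KO had 1 without KO 30 or KO 31, 2 without KO 32 and 3 without KO_star 16, against 5. KO_star against WT had 3 without KO_star 13 or KO_star 14, against 2. The interaction had 1 without KO 32, 2 without WT 25, KO 30 or WT_star 20, 3 without WT 27, WT 28, KO 31 or WT_star 21, and 4 without WT_star 34, against 6. The test over all 4 groups had 2 without KO 32, 3 without KO 30, 4 without WT 27, WT 28 or KO 31, 5 without WT_star 21 and 6 without WT 26 or WT_star 20, against 9.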

How the data were processed

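Total RNA of 17 livers was made into libraries with a stranded kit that removes ribosomal RNA, per the labels. The authors deposited 1 table of 27020 genes, and its values are a normalized signal, that is, read numbers scaled by a size factor for each library. In each library every value was a multiple of 1 read (100% within 0.001 reads), so whole reads were recovered. Cutadapt, HISAT2, DESeq2 and the build GRCm38 come from the submitters' processing notes. Their versions, the counting tool, the annotation and the strand setting are not given in the sources used.

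The log2(value + 1) data entered limma 3.58.1 (R 4.3.3, statmod 1.5.0, trended and robust variance) with 1 mean per group and all 17 libraries in the fit. Genes needed 3 or more libraries at 10 or higher. Two-sided p-values were adjusted by Benjamini-Hochberg over 16157 genes, and the threshold was 0.05. Alternatives on whole reads used edgeR 4.0.16 and DESeq2 1.42.0, and the limma fit was tested on simulated data. All 30 same-group pairs differed beyond sampling noise (chi-square per degree of freedom 8.53 to 101.68). No label states that the mice of a group were unrelated, so a p-value reflects the spread of these samples, and floors cover counting error only. Positions are from GENCODE M21 (GRCm38; 112 members matched) and promoters from RefSeq (97 members). Named members are the called ones (up to 15 per comparison), those with the smallest p where under 3 passed, the most abundant, those nearest the filter and cluster neighbours of called members; Zfp809, Zfp746, Zfp932 and the members with the widest spread were added after their values were seen. The members and lists were chosen with earlier results of these data known. A result for 1 listed gene is not reported here.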

Additional observations from a re-analysis of the deposited data

Results flagged for a closer look

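The difference between KO and WT was not the same as that between KO_star and WT_star, by the interaction test in limma, for Zfp868 (1.36), Zfp983 (-0.98), Zfp706 (-0.52), Zfp874a (-0.92), Zfp870 (-1.21) and Zfp960 (-2.20), as log2 differences. All 6 had a called difference between KO and WT, which is itself a part of the interaction. None had one between KO_star and WT_star, where 0% of all genes were called. KO and WT differ in ancestry as well as genotype, and Zfp874a and Zfp960 were also called between WT_star and WT, which are both genetically wild type. No WT library reached the value of 10 for Zfp960, so its calls are in part set by the filter.

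In 45 sets of values (15 members in the WT, WT_star and KO_star groups), 4 held a library far from the others, where chance flags about 1 in 20. KO_star 14 was low for Rsl1 (39.2) and high for Zfp759 (194.8) and Zfp870 (198.0) within KO_star. KO_star 29 was high for Zfp983 (69.8) within KO_star.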

How the results depend on the processing

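Results were recomputed with a pseudocount of 0.5 or 5, without the filter or at 50, with equal library totals, quantile normalization, edgeR, DESeq2, only the libraries compared, and leaving out each library. Under DESeq2 the count of called members was 6 in WT_star against WT, 8 in KO_star against KO, 6 in KO_star against WT and 17 over all 4 groups, against 3, 5, 2 and 9. With only the libraries compared, WT_star against WT had 1. For these counts and those with 1 library left out, the matching counts over all genes are not given here. Such shifts cannot be read as particular to the members. Leaving out 1 library gave 3 to 7 in KO against WT, 1 to 2 in WT_star against WT, 0 to 1 in KO_star against WT_star, 1 to 6 in KO_star against KO, 2 to 3 in KO_star against WT, 1 to 7 in the interaction and 2 to 10 over all 4 groups. For single members, 432 values kept their direction and side of the threshold, 110 lost the threshold, 3 gained it, and 0 changed sign; the cause was not tested. Equal library totals put the median log2 fold change of all genes between -0.094 and 0.074, depending on the comparison. No paired analysis was possible because the litters are not given and no replicate number occurs in more than 1 group. Whether mice of different groups were littermates is not known. Members near the filter rest on few reads.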

Other observations

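Within WT_star, libraries 20 and 21 stood apart from 33 and 34 for some members, a pattern noticed after the values were seen and not tested. Over the genes with enough reads, 33 and 34 did not form a pair. The chi-square per degree of freedom was 59.74 between 33 and 34, against 34.53 between 20 and 34 and 34.57 between 21 and 34. Between 20 and 21 it was 10.51. Zfp868 was at 168.4 and 183.6 in the first pair and at 324.6 and 286.7 in the second. Zfp874a was at 513.3 and 485.1 against 392.9 and 375.4, and Zfp810 at 273.2 and 313.1 against 234.1 and 211.4. The labels give nothing beyond the numbers that would tell these libraries apart.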
